A study of Mus musculus with 8 samples.

Results

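Among 54341 cortical nuclei of 8 mice, 512 (0.942%) carried at least 2 unique molecular identifiers (UMIs, each standing for 1 captured RNA molecule) of Enpp6 and at least 2 of Bcas1, and are described here. They were selected on raw UMIs. Besides Enpp6 and Bcas1 the rule asked for no UMI of Pdgfra or Csf1r, at most 1 of Slc17a7 and at most 1 of Gad1 and Gad2 together, among nuclei in which 200 to 6000 genes were detected, the UMIs exceeded 1000 and mitochondrially encoded genes held under 10% of them. Because these 7 genes chose the nuclei, their levels are not results. Single-nucleus RNA-seq (snRNA-seq) was made from the cortex of 4 wild-type (Wt) mice and 4 Ifnar1-/- mice, a constitutive knockout of the type-I interferon receptor subunit IFNAR1 with no Cre driver. All mice were C57BL6J, naive and 6 weeks old, with 2 females (F1, F2) and 2 males (M1, M2) of each genotype, and 1 library was made per mouse. Each library held 44063346 to 58423423 UMIs in all. The Enpp6+Bcas1+ nuclei numbered 67, 53, 72 and 74 in Wt F1, F2, M1 and M2 and 69, 53, 37 and 87 in the Ifnar1-/- libraries in the same order, and their summed UMIs ranged from 113653 to 304020 per library. No 2 of them shared a barcode sequence, although 6 had a barcode that also occurred in another library.

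Oligodendrocytes wrap axons in myelin. They arise from dividing precursors that carry the growth factor receptor PDGFRA, pass through a committed stage marked by the receptor GPR17, and become newly formed, premyelinating cells that extend processes before they either start to myelinate or die. Enpp6, which encodes a choline phosphodiesterase, and Bcas1, which encodes a protein of early myelinating cells, are known from this interval, as is Tcf7l2, a transcription factor of the TCF/LEF family that takes part in Wnt signalling and in the start of myelin gene expression.

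The 512 nuclei were compared with 3 other sets. Mature oligodendrocyte nuclei (7402) had at least 1 UMI of Mag and Mog together and at most 1 of Enpp6, under the same limits on Pdgfra, Slc17a7, Gad1, Gad2 and Csf1r. Precursor nuclei (321) had at least 2 UMIs of Pdgfra and none of Mag or Mog, and 12871 glutamatergic nuclei with at least 3 UMIs of Slc17a7 showed what free RNA and neuronal expression contribute. Median UMIs per nucleus were 2932 in the Enpp6+Bcas1+ nuclei, 2190 in mature, 2405 in precursor and 10366 in glutamatergic nuclei. Scrublet, which scores nuclei that may be 2 nuclei in 1 droplet, called 17 of the 512 (3.32%), against 3.85% of the mature nuclei and 4.5% of all nuclei. Of 583 nuclei with 2 UMIs or more of both Enpp6 and Bcas1, 71 were lost to the limits on other genes.

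The name newly formed oligodendrocytes fitted only some of these nuclei. Tcf7l2, which the rule did not use, had a UMI in 195 of the 512 (38.1%), against 10.1% of mature, 26.5% of precursor and 1.38% of glutamatergic nuclei, and after each nucleus was thinned to 1000 UMIs the shares were 22.9%, 4.85%, 11.5% and 0.186%. A UMI of Mag or Mog, which encode myelin membrane proteins, was found in 470 (91.8%). As a description chosen after the data were seen, 4 genes of early cells (Tcf7l2, 9630013A20Rik, Itpr2 and Gpr17) and 4 of late cells (Mobp, Mal, Opalin and Aspa) were scored by how many had a UMI in each nucleus. At least 2 early genes and fewer than 2 late genes were found in 154 nuclei (30.1%), at least 2 late and fewer than 2 early genes in 337 (65.8%), both in 15 (2.93%) and neither in 6. Mature nuclei held 0.338% of the early kind and 82.4% of the late kind. Among the 321 precursor nuclei, which carry Itpr2 and Gpr17 as well (a UMI in 58.6% and 57.3%), 164 (51.1%) were of the early kind and 0.312% of the late kind, so this score does not separate newly formed cells from precursors. The 512 nuclei thus held 2 kinds that seldom met in 1 nucleus, and they are called Enpp6+Bcas1+ nuclei below.

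The promoters of 4 genes that separate these kinds are shown because Enpp6 chose the nuclei, Tcf7l2 and 9630013A20Rik (a long noncoding RNA gene transcribed antisense to another gene) were higher where Enpp6 was higher, and Mal, which encodes a proteolipid of compact myelin, was lower there. Each sequence is 250 bases before to 50 bases after the RefSeq transcript start on GRCm38.p6, 5′ to 3′ on the gene's strand. They lie at chr8:46986637-46986936 (+) for Enpp6, chr19:55741560-55741859 (+) for the upstream start of Tcf7l2, chr14:84476375-84476674 (-) for 9630013A20Rik and chr2:127656646-127656945 (-) for Mal. Capitals mark the SOX core ACAATG or ACAAAG and the TCF/LEF core CTTTGA on either strand. SOX factors, Sox10 first among them, and TCF/LEF factors are the families that act in this lineage.
Enpp6: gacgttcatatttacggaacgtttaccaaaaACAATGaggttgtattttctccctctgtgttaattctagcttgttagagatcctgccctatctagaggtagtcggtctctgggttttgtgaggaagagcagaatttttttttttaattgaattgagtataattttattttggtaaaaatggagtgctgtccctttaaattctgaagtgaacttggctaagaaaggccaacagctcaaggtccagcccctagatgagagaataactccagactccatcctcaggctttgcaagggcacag
Tcf7l2: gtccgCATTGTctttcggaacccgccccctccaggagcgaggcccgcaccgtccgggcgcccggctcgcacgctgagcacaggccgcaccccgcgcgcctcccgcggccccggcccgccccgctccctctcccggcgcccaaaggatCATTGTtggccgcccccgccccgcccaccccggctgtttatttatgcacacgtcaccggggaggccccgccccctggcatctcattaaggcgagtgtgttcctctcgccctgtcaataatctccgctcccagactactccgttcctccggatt
9630013A20Rik: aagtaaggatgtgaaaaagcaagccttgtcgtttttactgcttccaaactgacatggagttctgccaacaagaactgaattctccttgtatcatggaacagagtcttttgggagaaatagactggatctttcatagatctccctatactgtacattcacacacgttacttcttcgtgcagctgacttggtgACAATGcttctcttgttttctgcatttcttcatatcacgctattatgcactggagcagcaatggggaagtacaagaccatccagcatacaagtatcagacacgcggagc
Mal: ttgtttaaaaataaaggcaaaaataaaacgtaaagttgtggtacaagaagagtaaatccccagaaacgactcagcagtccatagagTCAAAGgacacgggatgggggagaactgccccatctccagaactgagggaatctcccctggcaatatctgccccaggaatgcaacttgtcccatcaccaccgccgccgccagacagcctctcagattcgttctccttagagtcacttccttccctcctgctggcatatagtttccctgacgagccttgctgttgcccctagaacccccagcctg
The Enpp6 window held ACAATG at -219 from the start, that of Tcf7l2 the same core on the reverse strand at -245 and -103, and that of 9630013A20Rik ACAATG at -59. A second Tcf7l2 start, at chr19:55895071-55895370, had ACAAAG on the reverse strand at -14. The Mal window had no SOX core and a reverse TCF/LEF core at -164. Of all 32851 promoter windows of this length 28.6% held either SOX core and 16% the TCF/LEF core, so each match is one that many promoters have. The GC content was 70.0% for Tcf7l2, 40.3% for Enpp6, 42.7% for 9630013A20Rik and 51.0% for Mal, against a median of 52.7%. TATAAA and CAGCTG were also searched; CAGCTG stood at -73 in the 9630013A20Rik window and TATAAA, on the reverse strand, at -242 in the second Tcf7l2 window.

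Nuclei with more Enpp6 UMIs had more of the early genes and less of the late ones. The Enpp6+Bcas1+ nuclei were divided into 38 with 10 or more Enpp6 UMIs, 98 with 5 to 9, 158 with 3 to 4 and 218 with exactly 2, and UMIs scaled to a library of fixed size (CPM, counts per 1000000 UMIs of the nuclei summed) were pooled over the nuclei of each set, which gives no error. Tcf7l2 stood at 2330 CPM in the first set, 1658 in the next, 504 in the third and 162 in the last, against 46.5 in mature and 121 in precursor nuclei. Gpr17, the receptor of committed precursors, stood at 894, 696, 363 and 75.6 CPM, with 6.7 in mature and 361 in precursor nuclei. Both genes thus passed through their highest level in the nuclei richest in Enpp6, whereas in precursors Gpr17 was closer to that level than Tcf7l2. Mal ran the other way, at 185, 322, 1051 and 1500 CPM from the most to the least Enpp6 UMIs and 1737 in mature nuclei. Opalin, a membrane protein gene of mature oligodendrocytes, stood at 33.3, 38.2, 148 and 253 CPM, and 426 in mature nuclei. Median UMIs per nucleus also differed between the sets, at 4689, 3572, 2892 and 2540, so a deeper nucleus was more likely to reach a high Enpp6 count. The part of depth in the order of the sets was not tested.

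**Figure D1:**
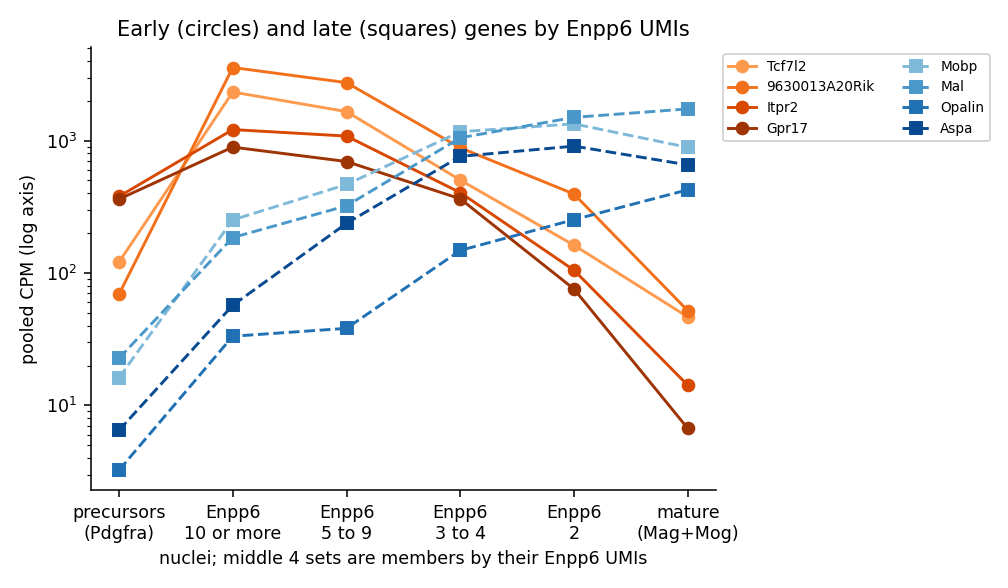
Pooled CPM on a log axis of 4 early genes (circles) and 4 late genes (squares) in precursor nuclei, in the Enpp6+Bcas1+ nuclei (members) by their Enpp6 UMIs, and in mature nuclei. The lines join sets and have no error bars because nuclei were pooled. Tcf7l2 goes from 2330 CPM at 10 or more Enpp6 UMIs to 46.5 in mature nuclei, and Mal from 185 to 1737.

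Scored nucleus by nucleus, the same early and late genes gave the same order. This rests on the same nuclei and sets and is not separate evidence. At least 2 early and fewer than 2 late genes were found in 94.7% of the nuclei with 10 or more Enpp6 UMIs, 67.3% of those with 5 to 9, 24.1% of those with 3 to 4 and 6.42% of those with 2. At least 2 late and fewer than 2 early genes were found in 90.4% of the nuclei with exactly 2 Enpp6 UMIs. The rule's threshold of 2 therefore fell among nuclei with late genes. Just outside it, 484 nuclei had 1 Enpp6 UMI and met the other terms, with Tcf7l2 at 71.6 CPM, Mal at 1909 and Opalin at 437, and 185 nuclei had 1 Bcas1 UMI where 152 members had exactly 2.

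Over the 1847 genes with a mean of at least 100 CPM, 215 were higher and 284 lower in the nuclei with 5 or more Enpp6 UMIs than in those with 2 in all 8 libraries. The genes that stood furthest on the higher side included Tnr, an extracellular matrix glycoprotein gene (597 CPM pooled at 2 Enpp6 UMIs and 10160 at 10 or more), Frmd4a, a scaffold protein gene of cell polarity (909 and 20420), Sox6, a transcription factor of precursors (114 and 1626), and Fyn, a Src-family kinase gene that acts in oligodendrocyte process growth (287 and 3570). On the lower side were Aspa, which encodes the aspartoacylase that splits N-acetylaspartate (909 and 57.1), Apod, an apolipoprotein gene (1855 and 76.1), Car2, carbonic anhydrase 2 (529 and 9.51), and the long noncoding RNA Neat1 (1190 and 76.1). Since Enpp6 UMIs defined the sets, these differences are given with no test.

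How many nuclei of each kind a library gave varied. Early genes without late ones were found in 7.46%, 24.5%, 40.3% and 24.3% of the Enpp6+Bcas1+ nuclei of Wt F1, F2, M1 and M2 and in 71.0%, 17.0%, 24.3% and 25.3% of those of Ifnar1-/- F1, F2, M1 and M2. Ifnar1-/- F1 stood apart with 49 early and 15 late nuclei, and Wt F1 was at the other end with 5 and 61. The share with a Tcf7l2 UMI was 20.9%, 37.7%, 41.7% and 33.8% in Wt and 71.0%, 32.1%, 27.0% and 34.5% in Ifnar1-/-. Thinned to 1000 UMIs, those shares became 11.9%, 22.6%, 33.3% and 28.4% in Wt and 52.2%, 22.6%, 18.9% and 14.9% in Ifnar1-/-. Ifnar1-/- F1 also gave 95 of the 321 precursor nuclei.

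**Figure D2:**
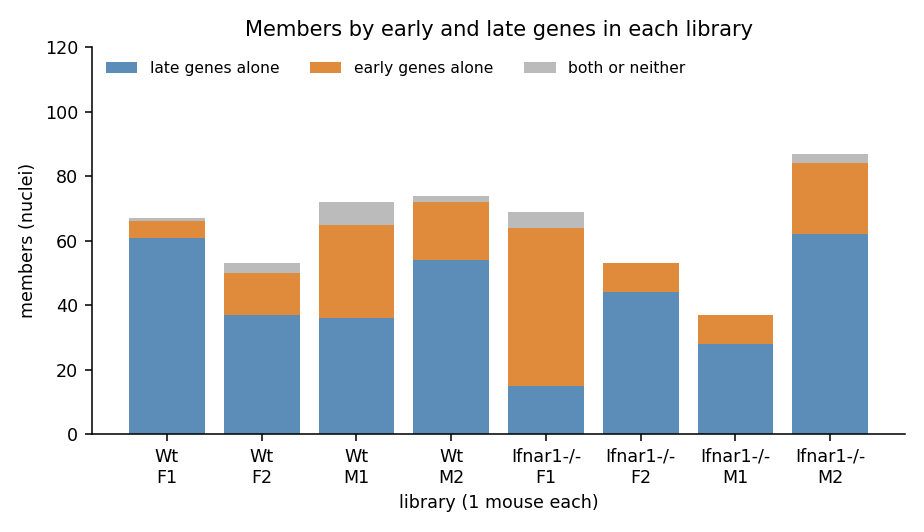
Number of Enpp6+Bcas1+ nuclei (members) in each library, 1 mouse each, stacked by whether a nucleus had at least 2 late genes, at least 2 early genes, or both or neither. Early genes alone stands for at least 2 early and fewer than 2 late genes, and late genes alone for the reverse. Ifnar1-/- F1 has 49 nuclei with early genes alone of 69, and Wt F1 has 5 of 67.

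Set against mature oligodendrocyte nuclei of the same mouse, the Enpp6+Bcas1+ nuclei had more RNA of newly formed and committed precursor genes, a mixed picture over myelin genes, and less of genes of neurons. For each library the difference of log2(CPM + 20) was taken, which understates the difference of genes of few UMIs, and it is given as the mean and SD over 8 libraries. Of 7359 genes with a mean of at least 20 CPM, 552 (7.5%) were higher and 823 (11.2%) lower in all 8 libraries, and the median over all genes was -0.012. Because the rule sorted the nuclei by measured UMIs, no test was made, and 8 of 8 libraries describes how far the mice were alike.

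Of the 23 described genes on the list of newly formed oligodendrocyte genes, Enpp6 and Bcas1 left out, 18 were higher and 1 (Bin1) lower in all 8 libraries, with a median difference of 1.74. 9630013A20Rik (chromosome 14, 84458639 to 84476424) stood at 443, 1536, 2432 and 1923 CPM in Wt F1, F2, M1 and M2 and at 3171, 474, 1478 and 714 in the Ifnar1-/- libraries in the same order. In mature nuclei it stood at 18.5 to 80.2 CPM, so no library's values overlapped, and the difference was 4.29 ± 0.80 (SD, n = 8). Tcf7l2 (chromosome 19, 55741820 to 55933654) stood at 374, 922, 1180 and 1041 CPM in Wt and 1964, 435, 493 and 536 in Ifnar1-/-, against 30.0 to 72.3 in mature nuclei, a difference of 3.50 ± 0.99. Its lowest and highest values were in Wt F1 and Ifnar1-/- F1, the libraries with the fewest and the most early nuclei. Itpr2, an inositol trisphosphate receptor gene of calcium release, stood at 271, 348, 908 and 426 CPM in Wt and 1132, 413, 352 and 497 in Ifnar1-/-, against 7.8 to 20.7, a difference of 3.91 ± 0.65.

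Genes of the cell surface and cytoskeleton on the same list were also higher in 8 of 8 libraries. Fyn differed by 3.40 ± 0.63, Tns3, a focal adhesion protein gene, by 2.89 ± 0.78, and Nfasc, which encodes the neurofascins at the node of Ranvier and its flanks, by 1.71 ± 0.79. Frmd4a was at 1902 to 13051 CPM in the Enpp6+Bcas1+ nuclei and 384 to 674 in mature nuclei, with the highest value in Ifnar1-/- F1. That library thus led both the transcription factor and the scaffold gene. The difference of Frmd4a (3.41 ± 0.67) was -0.21 in the 317 nuclei without a Tcf7l2 UMI. The median of the list was 0.10 over 20 genes in those nuclei and 2.68 over 23 genes in the 195 with one. Tcf7l2 is itself on the list, and the nuclei with a Tcf7l2 UMI were deeper, at a median of 3499 UMIs against 2710. The split thus fixes part of this contrast, and the part of depth in it was not tested.

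Of the 12 described committed precursor genes, 10 were higher and none lower in all 8 libraries, with a median of 2.99. Gpr17 (chromosome 18, 31942997 to 31949636) stood at 115, 205, 528 and 354 CPM in Wt and 563, 365, 669 and 490 in Ifnar1-/-, against 4.22 to 9.41 in mature nuclei. Bmp4, a secreted ligand of the bone morphogenetic protein family, stood at 87.1 to 299 CPM against 0 to 1.44 (difference 3.21 ± 0.55), and in precursors it was at 7.6 CPM pooled. Neu4, a sialidase gene, stood at 87.9 to 375 CPM against 0 to 3.07 (3.06 ± 0.55), and at 202 in precursors. Bmp4 RNA was thus found in the Enpp6+Bcas1+ nuclei and hardly in the sets on either side of them, whereas Neu4 was also found in precursors. The matrix genes Vcan and Tnr differed by 2.87 ± 0.66 and 4.23 ± 0.53. In the 218 nuclei with exactly 2 Enpp6 UMIs the differences from mature nuclei were smaller and spread widely. There Gpr17 differed by 1.17 ± 1.66, Bmp4 by 0.91 ± 1.39, Tnr by 0.27 ± 2.20 and Sox6, also on this list, by 0.20 ± 1.72. In glutamatergic nuclei a Bmp4 UMI was found in 0.241% and a Gpr17 UMI in 0.482%, against 18.2% and 28.9% of the Enpp6+Bcas1+ nuclei.

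Some genes of dividing precursors stood higher than in mature nuclei. Of 13 described on that list, Pdgfra left out, 8 were higher than in mature nuclei in all 8 libraries, among them Luzp2 (1.63 ± 0.55), Ptprz1, a receptor phosphatase gene (1.52 ± 0.60), and Lhfpl3 (1.25 ± 0.53), and Pcdh15 was lower (-0.95 ± 0.57). Ptprz1 had a UMI in 22.1% of the Enpp6+Bcas1+ and 97.2% of the precursor nuclei, and Cspg4, the NG2 proteoglycan gene, in 6.45% and 69.8%. After thinning to 1000 UMIs, Ptprz1 was found in 25.7% of the nuclei with 5 or more Enpp6 UMIs. With exactly 2 Enpp6 UMIs it was found in 3.21%, and in mature nuclei in 2.31%. For Cspg4 these shares were 2.21%, 3.21% and 1.32%. No gene of the cell cycle list reached 20 CPM. The 14 cell cycle genes summed to 5.12 to 44.0 CPM in the Enpp6+Bcas1+ and 15.2 to 32.9 in mature nuclei, and 7 of the 14 in Wt and 5 in Ifnar1-/- had no UMI in the Enpp6+Bcas1+ nuclei.

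Myelin genes were not alike. Of 32 described, Mag and Mog left out, 9 were higher and 6 lower in all 8 libraries, with a median of 0.25. Mbp, myelin basic protein, stood at 4011, 4650, 2873 and 3719 CPM in Wt and 3846, 3961, 3379 and 3641 in Ifnar1-/-, against 3585, 3153, 1771 and 2665 and 2227, 3079, 2169 and 2601 in mature nuclei, higher in 8 of 8 by 0.52 ± 0.20. The enzymes of galactolipid synthesis Ugt8a (0.47 ± 0.18), Fa2h (0.36 ± 0.16) and Gal3st1 (0.63 ± 0.26) were higher in all 8. Mal stood at 421 to 2124 CPM against 1029 to 3173 (-0.98 ± 0.29), Opalin at 45.7 to 243 against 322 to 576 (-1.55 ± 0.39), and Ptgds, prostaglandin D synthase, was lower by 1.91 on this scale (-1.91 ± 0.53). Il33, an alarmin cytokine gene of mature oligodendrocytes, differed by -1.60 ± 0.51. RNA of Mbp and of the galactolipid enzymes was thus above the mature level, and that of Mal, Opalin, Il33 and Ptgds below it. The sign of the list's median depended on which nuclei were taken, at 0.41 without and -0.68 with a Tcf7l2 UMI and -0.17 where mature nuclei needed 2 UMIs of Mag and Mog.

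Several myelin genes marked the late kind rather than the early one. Mobp, which helped define the late kind, stood at 1339 CPM pooled at 2 Enpp6 UMIs, 252 at 10 or more and 890 in mature nuclei. Anln, an actin-binding protein gene, stood at 493, 471, 174 and 303 CPM in Wt and 127, 535, 396 and 322 in Ifnar1-/-, higher than in mature nuclei of the same mouse in 8 of 8 libraries, with the smallest values in the 2 libraries richest in early nuclei. Pooled, it stood at 560 CPM in nuclei without a Tcf7l2 UMI and 101 in those with one. In the 218 nuclei with exactly 2 Enpp6 UMIs Anln was at 517 ± 157 CPM (SD, n = 8) against 143 ± 40.7 in mature nuclei, a difference of 1.71 ± 0.44. Of 1867 genes with a mean of at least 100 CPM, 170 (9.11%) were higher and 163 (8.73%) lower in these nuclei than in mature ones in all 8 libraries. Among the higher were Sema5a, a semaphorin gene (1.53 ± 1.05), and Mpzl1, a membrane protein gene related to myelin protein zero (1.29 ± 0.90), which were higher again at 5 or more Enpp6 UMIs than at 2 in 8 of 8 libraries. Others were Mob3b (1.5 ± 0.37), Tspan9 (1.5 ± 0.42), Cyp27a1, a sterol hydroxylase gene (1.36 ± 0.64), Myo1e, an unconventional myosin gene (1.33 ± 0.24), and Agmo, an ether lipid monooxygenase gene (1.31 ± 0.31). These differences are given with no test for the reason given above.

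Lineage transcription factors were described for 26 genes, of which 8 were higher and none lower in all 8 libraries. Sox10, which drives myelin genes with Myrf, stood at 386, 461, 575 and 507 CPM in Wt and 401, 396, 625 and 418 in Ifnar1-/-, against 188 to 339 in mature nuclei (0.69 ± 0.30). Nkx2-2, which acts at the turn from precursor to oligodendrocyte, stood at 30.7 to 70.4 CPM against 8.92 to 18.2 (1.12 ± 0.24). For both genes the values of the 2 sets of nuclei did not overlap. Sox6 differed by 3.29 ± 1.12, Zeb2 by 0.55 ± 0.19, St18 by 0.49 ± 0.28, Chd7, a chromatin remodeller gene, by 0.49 ± 0.32 and Sox8 by 0.48 ± 0.28. Myrf, the membrane-anchored factor of myelin gene expression, was higher in 7 of 8 (0.50 ± 0.39) and Zfp488 also in 7 of 8 (0.98 ± 0.66). Olig1 (0.00 ± 0.48) and Olig2 (0.48 ± 0.45) were higher in 4 and 6 libraries.

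In the Wnt pathway, 2 of 16 described genes were higher in all 8 libraries, Tcf7l2 and its relative Tcf7l1 (1.76 ± 1.05), and 2 were lower, Daam1 (-0.59 ± 0.22), a formin gene, and Dkk3 (-0.90 ± 0.33). The median was 0.08. Ctnnb1, beta-catenin, differed by 0.18 ± 0.53 and the feedback genes Nkd1 and Znrf3 by 0.06 ± 0.43 and 0.03 ± 0.39. The higher level was thus seen for the 2 TCF genes and not for the list. Over all described genes 7.5% were higher and 11.2% lower in all 8 libraries. In the nuclei with exactly 2 Enpp6 UMIs Tcf7l2 differed by 0.92 ± 1.38.

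Cholesterol synthesis genes had a median difference of 0.28. Of 16 described, 2 were higher and Ggps1 (-0.30 ± 0.27) lower in all 8 libraries, and Sqle, Cyp51, Msmo1, Dhcr7, Hmgcs1 and Sc5d were higher in 7 of 8. The median was -0.23 in nuclei with 5 or more Enpp6 UMIs and 0.06 where mature nuclei needed 2 UMIs of Mag and Mog. Fatty acid and sphingolipid genes had a median of 0.26, with 7 of 21 higher in 8 of 8, among them Elovl7, a fatty acid elongase gene (0.72 ± 0.29), Gltp, a glycolipid transfer protein gene (0.81 ± 0.20), and Fasn, fatty acid synthase (0.42 ± 0.20), and Cers4 lower (-0.81 ± 0.42).

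Process growth and adhesion genes showed both directions, with 11 of 38 higher and 6 lower in all 8 libraries. Beside Fyn and Tns3, the GTPase regulators Arhgap35 (1.61 ± 0.71) and Arhgap5 (1.18 ± 0.42) and the semaphorin receptor Plxnb3 (1.01 ± 0.47) were higher. Plxna4 (-1.32 ± 0.47), Robo1 (-0.71 ± 0.56) and Dcc (-0.55 ± 0.39), receptors of guidance cues, were lower. Of 8 survival and death genes, Tfeb, a transcription factor of lysosome genes that also limits survival of premyelinating oligodendrocytes, stood higher in 8 of 8 (0.74 ± 0.36), as did Mtor (0.41 ± 0.25), and 1 of the 8 was lower.

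The genes furthest below mature nuclei were Fam19a1, Gm28928, Galntl6, Rgs6, Gm26905, Nrg3, Nrxn3, Rbfox1, Kcnip4, Zfp804b, Hs6st3 and Chrm3, by mean differences of -2.52 to -2.13. Where mature nuclei needed 2 UMIs of Mag and Mog, the differences ran from -1.26 ± 0.88 (Fam19a1) to -0.71 ± 0.98 (Kcnip4). In precursors (pooled CPM) Fam19a1 (567), Nrxn3 (2762) and Rbfox1 (2226) stood above their mature means (447, 1835 and 1836), and the others stood below theirs. All 12 stood higher in glutamatergic nuclei (pooled CPM) than in mature nuclei (mean over libraries). Rbfox1, a neuronal splicing factor gene, stood at 132 to 1016 CPM in the Enpp6+Bcas1+ nuclei, 1254 to 2741 in mature and 5123 in glutamatergic nuclei. The 11 summed glutamatergic markers, Slc17a7 left out, stood at 1188 to 3638 CPM in the Enpp6+Bcas1+ and 4867 to 11462 in mature nuclei, with none of the markers at 0. Of 24 glutamate and GABA receptor genes 15 were lower in 8 of 8 and 2 were higher, among them Grid1 (1.03 ± 0.56). Neuronal RNA moved with these differences, and its part in them was not tested. Summed GABAergic markers stood at 1593 to 3187 CPM against 2322 to 2919, microglia markers at 98.1 to 255 against 114 to 215, astrocyte markers at 223 to 599 against 341 to 633, and vascular markers at 0 to 16.4 against 6.24 to 17.3.

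**Figure D3:**
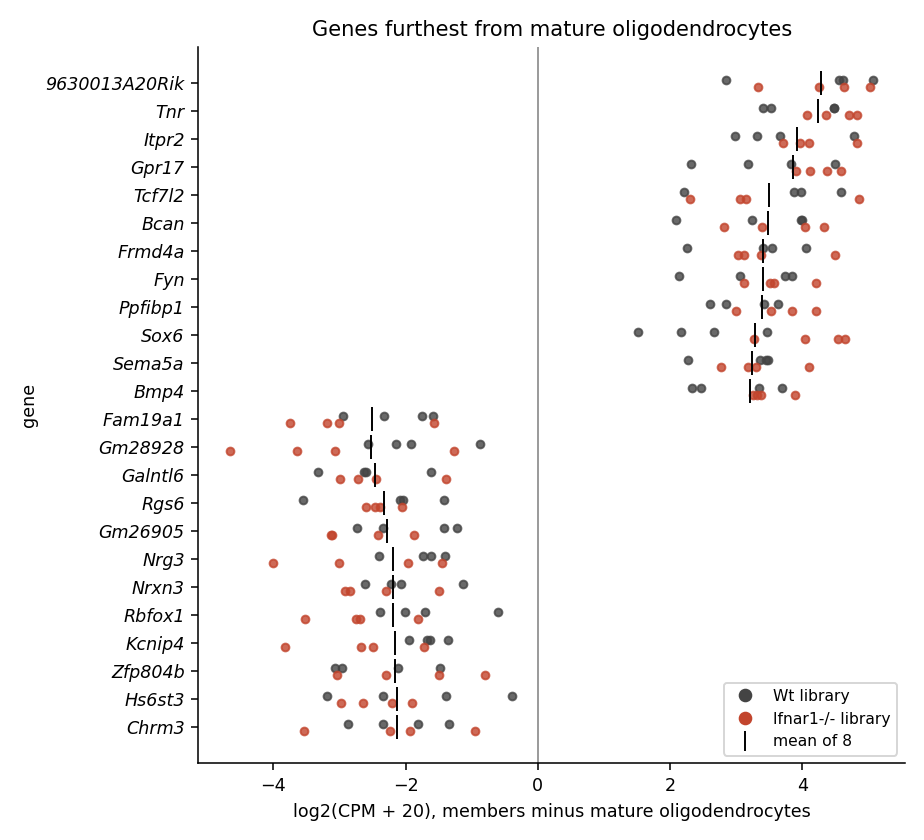
Difference of log2(CPM + 20) between Enpp6+Bcas1+ nuclei (members) and mature oligodendrocyte nuclei, 1 point per library, for the 12 genes furthest above and the 12 furthest below mature nuclei with the same sign in 8 of 8 libraries, with a bar at the mean. 9630013A20Rik is highest at 4.29 and Fam19a1 lowest at -2.52. Sox6 spreads most among the higher genes, with an SD of 1.12.

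Between genotypes, the question was whether the number of Enpp6+Bcas1+ nuclei or their expression differed without Ifnar1. In bulk sums of nuclei, fewer nuclei of a kind and less RNA per nucleus cannot be told apart. The targeted gene, Ifnar1 (chromosome 16, 91485238 to 91507441), had 8, 3, 4 and 6 UMIs in the Enpp6+Bcas1+ nuclei of Wt F1, F2, M1 and M2 and 0, 5, 2 and 4 in those of Ifnar1-/-. In mature nuclei it stood at 21.5, 17.6, 11.8 and 20.7 CPM in Wt and 12.1, 18.2, 18.6 and 17.4 in Ifnar1-/-. The values overlapped, and a UMI is counted for a gene wherever in the transcript it came from, so these counts do not check the labels.

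Enpp6+Bcas1+ nuclei made up 10.0%, 7.42%, 4.28% and 7.68% of oligodendrocyte nuclei (the 2 sets together) in Wt F1, F2, M1 and M2 and 4.80%, 9.25%, 5.01% and 7.64% in Ifnar1-/-. The ranges overlapped almost in full. The means were 7.35% ± 2.36 (SD, n = 4) and 6.68% ± 2.15 (SD, n = 4), with p = 0.657 in a two-sided exact permutation test over libraries, whose smallest possible p is 0.0286, and an adjusted p of 0.886 over the 2 shares tested. The share of a single library also carries counting error, and its exact binomial 95% interval (Clopper-Pearson, counting error only) was 3.55% to 6.84% in Ifnar1-/- M1, the library with the fewest such nuclei. As a share of all nuclei the means were 1.01% ± 0.223 and 0.962% ± 0.387 (exact permutation p = 0.886, n = 4 and 4). Neither share differed by more than the spread between mice. Within females the difference of the oligodendrocyte share was -1.70 percentage points and within males 0.347, with 2 mice of each genotype, too few for a test to pass 0.05.

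The spread between mice went with depth. The 3 libraries with the lowest share (Wt M1, Ifnar1-/- F1 and Ifnar1-/- M1) had the lowest median UMIs per mature nucleus, at 1740, 1570 and 1980, and Wt F1 and Ifnar1-/- F2, with the highest shares, had 2899 and 2902. When each nucleus was thinned to 1000 UMIs and selected again with at least 1 UMI of Enpp6 and of Bcas1, the shares were 8.97%, 9.16%, 8.95% and 9.46% in Wt and 9.79%, 8.78%, 9.0% and 9.61% in Ifnar1-/-. By this rule, after thinning, the 8 mice stood within 8.78% to 9.79%, and the genotypes at 9.13% ± 0.235 and 9.29% ± 0.481 (exact permutation p = 0.629, n = 4 and 4). This rule is not the one used at full depth, and it took 687 nuclei. Depth and rule were changed together, and the part of each in the narrower range was not tested. The nuclei with at least 2 early and fewer than 2 late genes were 1.54% ± 0.532 of oligodendrocyte nuclei in Wt and 2.03% ± 0.962 in Ifnar1-/- (exact permutation p = 0.486, n = 4 and 4).

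**Figure D4:**
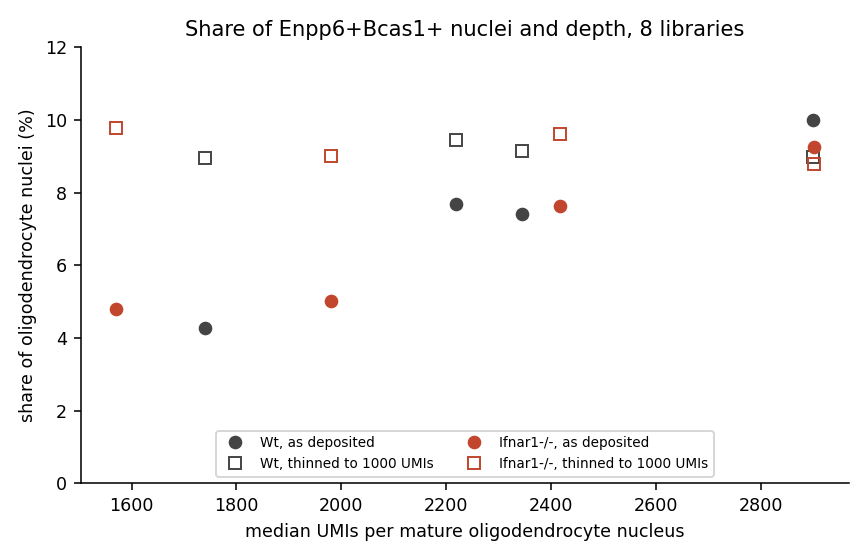
Share of Enpp6+Bcas1+ nuclei among oligodendrocyte nuclei in each library against the median UMIs per mature nucleus, as deposited (filled) and after thinning each nucleus to 1000 UMIs (open). The thinned nuclei were selected with at least 1 UMI of Enpp6 and of Bcas1, a looser rule. The filled points run from 4.28% to 10.0% and the open ones from 8.78% to 9.79%.

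The make-up of the set was compared in the same way. A Tcf7l2 UMI was found in 33.5% ± 9.01 of the Enpp6+Bcas1+ nuclei of Wt and 41.1% ± 20.2 of those of Ifnar1-/- (exact permutation p = 0.657, n = 4 and 4). The shares with 5 or more Enpp6 UMIs, a gene of the rule and so given with no test, were 24.0% ± 6.38 and 28.6% ± 6.17. Median UMIs per nucleus were 2840 ± 396 and 3056 ± 510 (exact permutation p = 0.543), and mitochondrially encoded UMIs 0.749% ± 0.379 and 1.14% ± 0.943 (exact permutation p = 0.629), with the highest value in Ifnar1-/- M2 at 2.5%. All 3 adjusted p-values were 0.657.

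In the Enpp6+Bcas1+ nuclei, 0 of 4026 genes (0%) differed between genotypes in the quasi-likelihood test of edgeR at a threshold of 0.05 on the p adjusted by Benjamini-Hochberg, with 95 genes at an unadjusted p under 0.05. DESeq2 called 2 genes, Grik1 and Prss48, with 55 genes at an unadjusted p under 0.05, and edgeR called the same pair when Ifnar1-/- F1 was left out. In mature nuclei, summed to many more UMIs, 4 of 12497 genes (0.032%) passed, of which Gm12576, Gm15446 and Pkd1l2 were lower and Gon4l higher in Ifnar1-/-. Gm15446 and Pkd1l2 passed with any 1 of the 8 mice left out and in the 7 other alternatives, whereas Gm12576 passed only without Wt F1 and Gon4l in none of the 8 fits with a mouse left out, and neither of these passed with the replicate label as a block. Gm12576, Gm15446 and Pkd1l2 had too few UMIs to be tested in the Enpp6+Bcas1+ nuclei, so the 0 calls do not bear on them. Gm15446, from a list drawn from these same samples, had 37 UMIs there in Wt and 12 in Ifnar1-/-, at 49.7, 35.8, 46.2 and 34.1 CPM in Wt and 15.2, 17.4, 17.6 and 9.87 in Ifnar1-/-, with no overlap. The test of whether the genotype effect itself differed between the 2 sets, with the mouse as a term, called 0 of 4026 genes (0%), with 156 at an unadjusted p under 0.05 and 80 in DESeq2, which also called 0. Its smallest p was for Sox6 (difference of effects 2.04, SE 0.46, adjusted p = 1). Sox6 stood at 191, 312, 770 and 486 CPM in Wt and 1461, 687, 528 and 740 in Ifnar1-/- in the Enpp6+Bcas1+ nuclei, which overlapped, and at 51.9 to 60.1 and 8.32 to 44.0 CPM in mature nuclei. Fold changes by genotype are on edgeR's normalized log2 scale, and CPM values are of all UMIs summed.

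Grik1, a kainate receptor subunit gene on chromosome 16 (87895900 to 88290265, minus strand), had the smallest p. It stood at 202, 189, 118 and 175 CPM in the Enpp6+Bcas1+ nuclei of Wt F1, F2, M1 and M2 and at 264, 1296, 906 and 753 in those of Ifnar1-/-. All 4 Ifnar1-/- libraries lay above all 4 Wt libraries, Ifnar1-/- F1 by the least. The log2 fold change was 2.21 (SE 0.40, adjusted p = 0.459 in edgeR), and over the alternatives the adjusted p ran from 2.46e-08 to 1. In nuclei without a Tcf7l2 UMI it stood at 231, 292, 222 and 286 CPM in Wt and 911, 1811, 1327 and 1095 in Ifnar1-/-, with a log2 fold change of 2.32 and an adjusted p of 4.79e-05 in edgeR over 2270 genes, a split chosen after the data were seen. In nuclei with one the values overlapped, at 10.4 to 127 CPM in Wt and 53.3 to 457 in Ifnar1-/-. Grik1 was thus higher in the late kind, whose share in Ifnar1-/- F1 was the lowest of the 8 libraries. In mature nuclei it stood at 177, 194, 203 and 164 CPM in Wt and 357, 423, 325 and 337 in Ifnar1-/-, a log2 fold change of 0.99 (adjusted p = 0.108). The difference between the 2 effects was 1.11 (SE 0.40, adjusted p = 1 in edgeR), so a larger effect in the Enpp6+Bcas1+ nuclei did not pass. Ifnar1 lies on the same chromosome, from 91485238.

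Prss48, a serine protease gene on chromosome 3 (85993810 to 86002491), stood at 180, 149, 354 and 269 CPM in Wt and 91.3, 26.1, 8.80 and 42.8 in Ifnar1-/-, with no overlap. The log2 fold change was -2.37 (SE 0.46, adjusted p = 0.459 in edgeR, from 3.46e-08 to 1 over the alternatives), and in mature nuclei -2.49 (adjusted p = 0.108). Gon4l, a nuclear protein gene also on chromosome 3 (88835231 to 88910103), stood at 76.4, 97.3, 97.5 and 76.8 CPM in Wt and 208, 257, 185 and 151 in Ifnar1-/-, a log2 fold change of 1.22 (SE 0.25, adjusted p = 0.497 in edgeR, from 0.041 to 1 over the alternatives). In mature nuclei Gon4l passed, at 0.97 (SE 0.12, adjusted p = 0.0266), a call that did not hold with any 1 mouse left out. Gm43713, which lies antisense within Gon4l (88845025 to 88900001), differed by 1.34 (SE 0.31, adjusted p = 0.969) and in mature nuclei by 1.55 (adjusted p = 0.0693). Grik1, Gon4l and Gm43713 were on a list drawn from these same samples, so their direction is not independent evidence. The next smallest p-values belonged to Frmpd4 (-1.09), Gmds (0.73), 6030407O03Rik (1.59), 4921511C10Rik (-1.39), Rbfox1 (-1.29) and Gab2 (0.66), each with an adjusted p of 1. The lower Rbfox1 stood beside summed glutamatergic markers of 1697 to 3638 CPM in Wt and 1188 to 2131 in Ifnar1-/-, and the part of neuronal RNA in it was not tested.

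**Figure D5:**
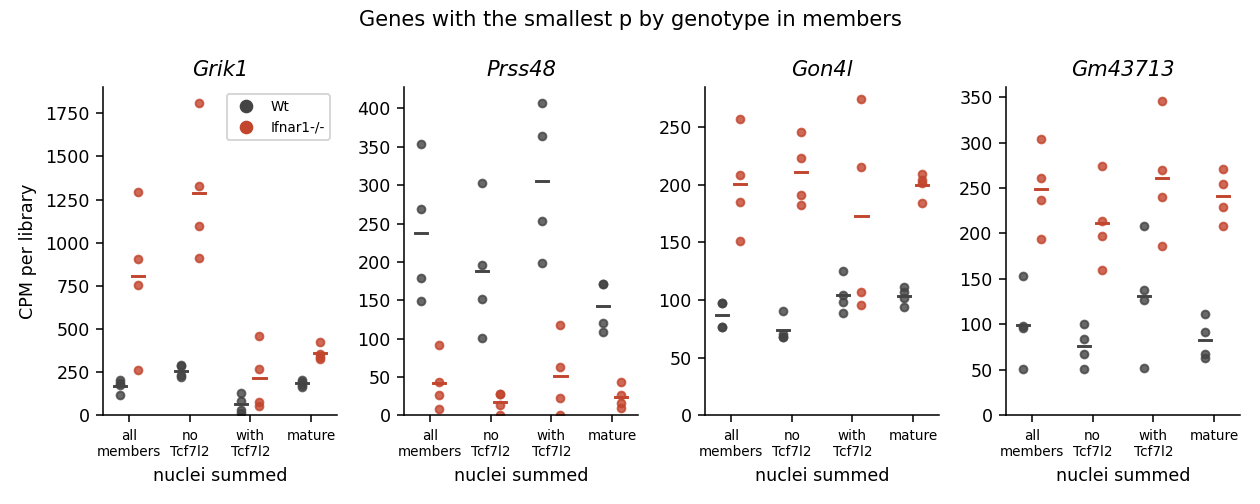
CPM per library of the 4 genes with the smallest p by genotype, in all Enpp6+Bcas1+ nuclei (members), in those without and with a Tcf7l2 UMI, and in mature nuclei, with a bar at each mean. The y axes differ between genes. Over all members Grik1 lies at 118 to 202 CPM in Wt and 264 to 1296 in Ifnar1-/-, and at 222 to 292 and 911 to 1811 without Tcf7l2.

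No gene of any list passed between genotypes in the Enpp6+Bcas1+ nuclei. The median log2 fold changes were 0.12 over 22 newly formed oligodendrocyte genes, 0.44 over 12 committed precursor genes, 0.47 over 10 precursor genes, -0.10 over 33 myelin genes, -0.04 over 20 lineage transcription factors, 0.10 over 13 Wnt pathway genes, -0.21 over 12 cholesterol genes and 0.00 over all genes. The higher medians of early genes stood beside the 49 early nuclei of Ifnar1-/- F1. Tcf7l2 itself overlapped between genotypes, at 374 to 1180 CPM in Wt and 435 to 1964 in Ifnar1-/-.

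Interferon response genes were close to or below detection. Of 49 in the files, 18 had no UMI in the 1731211 UMIs of the Enpp6+Bcas1+ nuclei, among them Isg15, Ifit1, Irf7, Oas1a and Rsad2, and a count of 0 allows up to 3 UMIs, or 1.73 CPM. Only Irf2, a transcription factor of interferon responses, had enough UMIs to be tested, at 122 UMIs in Wt against 94 in Ifnar1-/-, a log2 fold change of -0.31 that was not called. Ifi27 had 8, 13, 5 and 20 UMIs in Wt and 4, 9, 4 and 3 in Ifnar1-/-. Its values overlapped between genotypes, and a difference was not detectable at this depth. Against mature nuclei, Irf2 was higher in 8 of 8 libraries (0.37 ± 0.33), and H2-K1, a class I histocompatibility gene, in 7 of 8 (0.79 ± 0.68).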

How the data were processed

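Single-nucleus RNA-seq libraries of the cortex of 8 mice were made with the 10x Single Cell 3' chemistry, which keeps the strand. Alignment and counting were done by the authors in Cell Ranger against mm10 (GRCm38), with transcripts relabelled as exons so that unspliced RNA was counted. The deposited values are raw UMI counts, 31053 genes by 56780 barcodes, not normalized and before the authors' filters, doublet removal and Seurat analysis. The authors' cell classes were not used here. The stated filters on nuclei left 54341, and 352 barcode sequences occurred in 2 or more libraries. UMIs were summed per mouse, which is the replicate. Levels are CPM of all UMIs of the nuclei summed, and since unspliced RNA is counted they also depend on gene length, so levels of different genes were not compared.

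Genotypes were compared with edgeR 4.0.16 (R 4.3.3; TMM, filterByExpr by genotype, glmQLFit and glmQLFTest, robust, genotype as the only term) with Benjamini-Hochberg adjustment over all genes tested, on the samples of both genotypes. DESeq2 1.42.0, other normalization factors, no filter, sex, the replicate label, other thresholds, removal of doublets (Scrublet in scanpy 1.11.5; kept in the main values) and leaving out each mouse were tried. The scripts were tested on simulated data. Differences from mature nuclei were described with a pseudocount of 20 CPM and a minimum mean of 20 CPM. Shares were compared by exact permutation tests (scipy 1.17.1).

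The 12 genes furthest above and below mature nuclei with 1 sign in 8 libraries, the 10 smallest p by genotype and members of gene lists are named; promoters, coordinates and sequences come from RefSeq and the GRCm38 annotation. Bcas1 and Grik1 are named without a promoter. The nuclei and the lists were chosen with earlier results of these data known. Naming nuclei by genes, the split by Tcf7l2, the sets by Enpp6 UMIs and the early and late genes were chosen after the data were seen. Fold changes rest on 4 mice a genotype, and the mouse labels F1 to M2 are numbers within a genotype.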

Additional observations from a re-analysis of the deposited data

Results flagged for a closer look

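Within each genotype the highest or lowest of the 4 mice was compared with the others for 88 measures of the Enpp6+Bcas1+ nuclei, and 7 stood further apart than Dixon's 95% limit allows, where chance alone gives about 1 in 20. In 5 of the 7 the mouse was Ifnar1-/- F1. In that library 71.0% of the nuclei had a Tcf7l2 UMI and 71.0% had at least 2 early genes without 2 late ones, Tcf7l2 stood at 1964 CPM, Frmd4a at 13051 CPM and Sema5a, a semaphorin gene, at 1360 CPM, all above the other Ifnar1-/- mice. These 5 measures come from the same 69 nuclei and are not separate. In Ifnar1-/- M2, Gm28928 stood at 352 CPM and Galntl6 at 161 CPM, above the other Ifnar1-/- mice, and both are genes that are higher in glutamatergic nuclei. Ifnar1-/- M2 also had the highest share of mitochondrially encoded UMIs, at 2.5%. No cause of these values was tested.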

How the results depend on the processing

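The genotype difference of the share of oligodendrocyte nuclei (-0.678 percentage points) turned to 0.159 after thinning to 1000 UMIs. It was 0.272 with a Tcf7l2 UMI required, 0.259 with 5 or more Enpp6 UMIs and 0.492 for nuclei of the early kind. With 1 mouse left out it ran from -1.70 to 0.214, above 0 without Wt F1 alone. That of all nuclei (-0.0429) turned to 0.0272 with 3 or more Enpp6 UMIs, 0.0207 after thinning, 0.0644 with Tcf7l2, 0.0481 with 5 or more Enpp6 UMIs and 0.085 for early genes, and ran from -0.171 to 0.112 with 1 mouse left out, above 0 without Wt F1, Wt M2, Ifnar1-/- F1 or Ifnar1-/- M1. None of these differences passed the exact permutation test. The 0 genes called by genotype in the Enpp6+Bcas1+ nuclei became 15 of 17745 without a filter on low counts, 2 in DESeq2, 1 with 1 or more Enpp6 UMIs (Grik1) and 3 without Tcf7l2 UMIs (Grik1, Prss48 and Gon4l), and 0 to 2 with 1 mouse left out, the 2 (Grik1 and Prss48) without Ifnar1-/- F1. The 4 genes of mature nuclei became 10 in DESeq2 and 2 to 4 with 1 mouse left out, 2 without any one of Wt F2, Wt M1, Wt M2, Ifnar1-/- F2, Ifnar1-/- M1 or Ifnar1-/- M2. The 0 genes whose effects differed became 8 without a filter and 0 to 1 with 1 mouse left out, the 1 (Grik1) without Ifnar1-/- F1. The cause of these changes was not tested.

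Against mature nuclei, the median of myelin genes (0.249) was -0.173 with Mag and Mog at 2 or more, -0.061 with 3 or more Enpp6 UMIs, -0.682 with and 0.408 without Tcf7l2 and -0.716 with 5 or more Enpp6 UMIs. That of newly formed oligodendrocyte genes (1.742) was 2.683 with and 0.102 without Tcf7l2, 2.718 with 5 or more Enpp6 UMIs and 0.296 with exactly 2. That of cholesterol genes (0.276) was 0.062 with Mag and Mog at 2 or more, 0.088 with Tcf7l2 and -0.226 with 5 or more Enpp6 UMIs. Without Tcf7l2 UMIs the difference of Frmd4a turned to -0.213 and that of Tcf7l2, by the way these nuclei were chosen, to -1.764. The other 22 named genes kept their direction in the alternatives run, as did the 10 named by genotype.

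With the replicate label as a block edgeR called 0 genes in the Enpp6+Bcas1+ and 3 in mature nuclei. Deviations of same-numbered mice correlated at -0.651, 0.427, -0.283 and 0.186 for F1, F2, M1 and M2 in the Enpp6+Bcas1+ nuclei. In mature nuclei they correlated at -0.537, 0.208, 0.455 and 0.451. These few correlations do not show that the labels pair the mice, and they are too few to settle it. With 113653 to 304020 UMIs a library, depth limits what can be seen of genes of few UMIs.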
